A study of Mus musculus with 16 samples.

Results

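H3K27me3, the trimethylation of lysine 27 on histone H3, was compared between hair follicle stem cells and the other basal cells of the skin at early anagen, when the follicle starts to grow and the stem cells divide. The comparison uses the H3K27me3 peak list of EA-HFSCs and that of non-EA-HFSCs, each from PD22 to PD25, and every peak of both lists was taken. These are 43022 of the 219698 peaks in the 12 lists of the series, and 2 of its 16 samples. Peaks of the 2 lists with at least 1 bp in common were called shared. A gene was called marked if any part of a peak fell in the window from 3000 bp before to 3000 bp after its start.

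The study mapped H3K4me3, H3K9me3 and H3K27me3 by ChIP-seq in stem cells and non-stem cells of early anagen and of late catagen (PD38 to PD44), with IgG as background. All mice were wild-type CD1 x FVB, given as male in the labels, while the study's methods state that both sexes entered most analyses. EA-HFSCs were sorted from digested back and belly skin as CD34+/α6-integrin+ cells and non-EA-HFSCs as CD34-/α6-integrin+ cells, so that the non-EA-HFSCs are a mixture of basal epidermis and follicle cells outside the bulge. LC-HFSCs and non-LC-HFSCs are the same gates at late catagen. Chromatin was digested to single nucleosomes with MNase, and the reads of independent pools of mice were joined before peaks were called. With 1 list per population, replicates cannot be compared and the populations were not tested against each other. Intervals on shares are 95% Wilson intervals, which cover counting error only, and neighbouring peaks are not independent.

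H3K27me3 is written by Polycomb repressive complex 2, whose catalytic subunit is EZH2 or EZH1, and is bound by Polycomb repressive complex 1 through its CBX proteins. The mark lies in broad domains over CpG-rich starts of developmental regulators that a cell does not use, and is removed by the demethylases KDM6A and KDM6B. Starts that carry both H3K27me3 and H3K4me3, the mark of active or permissive starts, are called bivalent. In skin, Polycomb marks non-epidermal regulators in the epidermis, and the bulge of the follicle houses the stem cells that express CD34, SOX9, LHX2, TBX1 and NFATC1.

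The score of a peak is the authors' value, 10 times the negative log10 of the MACS p-value against IgG, and the lowest score in both lists is 40. It depends on read number and background, and was used to rank or filter peaks within a list. Scores of both lists are set side by side as values, and the same score does not stand for the same enrichment in each. The lists do not give read counts, mapped reads are stated by the study only as ranges over samples, and the study states that detection of H3K27me3 peaks had not reached saturation. A place without a called peak is thus a place where the threshold was not passed, which is not the same as a place without the mark. In sorted bulk cells, a mark in a few cells and a weaker mark in all cells cannot be told apart.

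The H3K4me3 lists of the same sorts were used to check the labels. Of 11 bulge markers, 11 had an H3K4me3 peak at one of their transcript starts in EA-HFSCs and 9 in non-EA-HFSCs, where Cd34 and Krt19 had none. Cd34 encodes the surface antigen of the gate itself. Krt5, Krt14 and Trp63, which define basal keratinocytes, had H3K4me3 in both populations. The suprabasal keratins were not alike. Krt1 had it in non-EA-HFSCs (score 1643) with no peak in EA-HFSCs, while Krt10 had it in both (1094 in EA-HFSCs and 2614 in non-EA-HFSCs). None of 5 leukocyte markers had an H3K4me3 peak in either population. In the longer leukocyte list used below, Cd68, Ikzf1, H2-Ab1 and Epcam had one near the start in both, and the other members in neither. Of 4 fibroblast markers, 3 had one in EA-HFSCs (Pdgfra, Dcn and Twist2) and 2 in non-EA-HFSCs (Pdgfra and Twist2), and of 4 endothelial markers Kdr had one in both. In the longer endothelial list used below, Flt1, Flt4, Erg, Esam, Cldn5, Sox18 and Plvap also had one near the start in both. Sox17 had one in EA-HFSCs alone. Of 6 melanocyte markers, Mitf, Dct and Pmel had one in both.

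Sequences before 4 starts that were marked in 1 population are given here, because they show how far the CpG content of such starts ranges. Each runs 5′ to 3′ on the strand of the gene up to its start, comes from the RefSeq tables (GRCm38.p6) and was placed on mm9 (NCBIM37) by exact match, and CpG dinucleotides are in capitals.
Cd34, chr1:196764765-196765014, plus strand: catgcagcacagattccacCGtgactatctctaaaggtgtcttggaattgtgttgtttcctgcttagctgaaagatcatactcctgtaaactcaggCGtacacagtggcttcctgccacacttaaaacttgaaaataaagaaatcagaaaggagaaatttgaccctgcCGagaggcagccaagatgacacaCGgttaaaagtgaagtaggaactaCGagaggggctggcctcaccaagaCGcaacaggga
Lhx2, chr2:38194551-38194800, plus strand: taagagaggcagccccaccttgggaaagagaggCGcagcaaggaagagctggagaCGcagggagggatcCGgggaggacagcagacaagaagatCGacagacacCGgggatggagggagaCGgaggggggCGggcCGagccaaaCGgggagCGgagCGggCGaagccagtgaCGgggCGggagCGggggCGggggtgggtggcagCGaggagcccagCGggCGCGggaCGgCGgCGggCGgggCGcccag
Wnt3a, chr11:59104255-59104503, minus strand: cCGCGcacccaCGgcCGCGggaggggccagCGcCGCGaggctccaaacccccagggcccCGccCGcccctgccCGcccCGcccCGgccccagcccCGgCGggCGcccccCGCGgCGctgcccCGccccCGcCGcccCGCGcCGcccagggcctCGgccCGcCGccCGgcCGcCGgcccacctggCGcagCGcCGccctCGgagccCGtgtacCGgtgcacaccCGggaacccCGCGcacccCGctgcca
Sox21, chr14:118636253-118636502, minus strand: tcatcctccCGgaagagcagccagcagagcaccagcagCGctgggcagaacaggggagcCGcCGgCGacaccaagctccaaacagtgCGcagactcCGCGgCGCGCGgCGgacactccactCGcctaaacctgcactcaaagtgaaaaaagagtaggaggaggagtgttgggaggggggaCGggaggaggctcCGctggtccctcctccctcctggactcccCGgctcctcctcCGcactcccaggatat
The windows of Cd34 and Lhx2 were wholly covered by a non-EA-HFSC peak and not by an EA-HFSC peak, and hold 6 and 25 CpGs. The windows before Wnt3a and Sox21 held 41 and 17 CpGs and were covered over 149 and 250 bp by EA-HFSC peaks and by none of non-EA-HFSCs. The Sox21 window also overlaps an exon of a non-coding RNA on the other strand. Over all genes the 250 bp before the start had a median of 8 CpGs. The median was 12 before the genes marked in both populations, 10 before those marked in non-EA-HFSCs alone and 6 before those marked in EA-HFSCs alone.

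H3K27me3 peaks were more numerous but narrower in EA-HFSCs than in non-EA-HFSCs. EA-HFSCs had 25534 peaks and non-EA-HFSCs 17488, a ratio of 1.46 (1.43 to 1.49). The EA-HFSC peaks nevertheless covered less of the genome, 58.2 Mb against 68.3 Mb, a ratio of 0.853. The ratio of peak numbers was above 1 on every autosome and on X, from 1.11 on chromosome 8 to 2.09 on chromosome 14. The ratio of covered length was above 1 on chromosomes 3, 5 and 14 alone.

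The median width was 1381 bp (1368 to 1393) in EA-HFSCs and 2612 bp (2578 to 2647) in non-EA-HFSCs. Peaks under 1 kb made up 24.8% of the EA-HFSC list and 0.926% of the non-EA-HFSC list. Broad domains of 10 kb or more were 545 of the EA-HFSC peaks (2.13%, 1.96 to 2.32%) and 930 of the non-EA-HFSC peaks (5.32%, 5.00 to 5.66%), and held 17.1% and 24.1% of the covered bases. The difference was therefore present at both ends of the distribution. It was also present in each of 6 bands of the score: non-EA-HFSC peaks were 1.68 times as wide as EA-HFSC peaks with scores from 40 to 50 and 1.22 times as wide with scores of 500 or more. The bands do not match enrichment, since the same score does not stand for the same enrichment in each list.

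**Figure D1:**
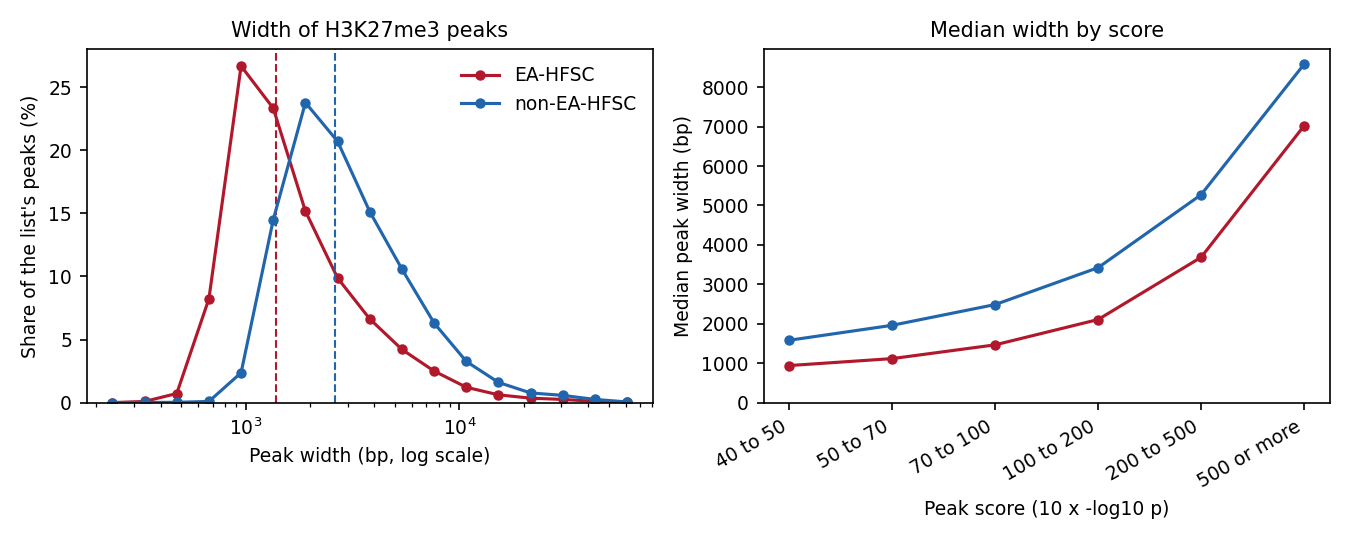
Left, share of each list's H3K27me3 peaks (%) by width (bp, log scale), with dashed lines at the medians of 1381 bp in EA-HFSCs and 2612 bp in non-EA-HFSCs. Right, median width (bp) of the peaks within 6 bands of the score, where the non-EA-HFSC line lies above the EA-HFSC line in every band.

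The same order held where the lists met. In 5266 places 1 EA-HFSC peak and 1 non-EA-HFSC peak overlapped each other and no other peak, with median widths of 2103 and 3142 bp. The non-EA-HFSC peak was the wider in 3904 of these pairs (74.1%, 72.9 to 75.3%), and the median ratio of widths was 1.34 (quartiles 0.989 and 2.04). In other places the lists cut a domain differently. A single non-EA-HFSC peak overlapped 2 EA-HFSC peaks in 1653 cases and 3 or more in 503, up to 8. A single EA-HFSC peak overlapped 2 non-EA-HFSC peaks in 651 cases and 3 or more in 47.

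The widest domains lay over developmental regulators in both lists. In EA-HFSCs these were 2 neighbouring domains over Hoxd, at chr2:74476284-74543201 (66918 bp) and chr2:74543317-74609153 (65837 bp), and domains of 55994 bp over Hoxc9 to Hoxc12, 55347 bp at Hoxb13 and 53539 bp at Gata4, a regulator of heart and endoderm. In non-EA-HFSCs they were domains of 66042 bp at Hoxb13, 65724 bp over Hoxd1, Hoxd3 and Hoxd4, 60064 bp over Zic1 and Zic4, 56861 bp at Pax3 and 55385 bp at Barhl2, the last regulators of neural and neural crest fates. All 5 of the non-EA-HFSC domains and 3 of the 5 EA-HFSC domains overlapped peaks of the other list. The other 2, over the posterior Hoxc and Hoxd genes, did not.

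As deposited, less of each list was shared than not, whereas with scores of at least 100 the shared part was 52.0% of EA-HFSC and 51.5% of non-EA-HFSC peaks. An EA-HFSC peak was overlapped by a non-EA-HFSC peak in 10427 cases (40.8%, 40.2 to 41.4%), and a non-EA-HFSC peak by an EA-HFSC peak in 8300 (47.5%, 46.7 to 48.2%). This leaves 15107 peaks (59.2%) in the EA-HFSC list alone and 9188 (52.5%) in the non-EA-HFSC list alone. With lists of equal size both orders turned, with 8869 peaks in EA-HFSCs alone and 10243 in non-EA-HFSCs alone. The shared parts were then 49.3% of EA-HFSC and 41.4% of non-EA-HFSC peaks. By length and as deposited, 31.8 Mb carried a peak in both, which is 54.6% of the EA-HFSC and 46.6% of the non-EA-HFSC bases. Sharing rose with the score. Among the highest-scoring 10% of peaks, 87.5% (86.2 to 88.8%) were shared in EA-HFSCs and 91.8% (90.4 to 93.0%) in non-EA-HFSCs. Among the lowest-scoring 10% these shares were 18.9% (17.4 to 20.4%) and 25.2% (23.2 to 27.3%).

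The peaks of 1 list alone were not alike in the 2 populations. Peaks of EA-HFSCs alone were narrow (median 1168 bp), lay between genes in 64.6% of cases, and had 5.91% (5.54 to 6.30%) with their middle within 3000 bp of a transcript start of a protein-coding gene. Peaks of non-EA-HFSCs alone had a median of 2152 bp, lay between genes in 58.5% of cases and had 15.6% (14.9 to 16.4%) near a start. Shared peaks lay between genes in 52.1% (EA-HFSC peaks) and 51.0% (non-EA-HFSC peaks) of cases, and 26.5% and 28.0% were near a start. CpG frequency under the peaks, as a ratio of the count observed to that expected from base content, followed the same order, with 0.202 in peaks of EA-HFSCs alone, 0.246 in those of non-EA-HFSCs alone, and 0.311 and 0.301 in the shared peaks of each list.

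Other lists played no part in defining these classes, and H3K4me3 and the non-LC-HFSC list gave the same order. The overlaps were not adjusted for width, and a wider peak meets another list more readily. Median widths were 1168 bp for peaks of EA-HFSCs alone and 2152 bp for those of non-EA-HFSCs alone. Shared peaks had medians of 2065 bp in EA-HFSCs and 3601 bp in non-EA-HFSCs. An H3K4me3 peak of EA-HFSCs overlapped 1.51% (1.33 to 1.72%) of the H3K27me3 peaks of EA-HFSCs alone and 13.2% (12.5 to 13.9%) of those of non-EA-HFSCs alone. An H3K27me3 peak of non-LC-HFSCs, the CD34- cells of late catagen, overlapped 7.48% (7.07 to 7.91%) and 28.6% (27.7 to 29.5%), against 62.0% and 64.3% of the shared peaks. In the LC-HFSC list, which shares the gate of EA-HFSCs and holds 1909 peaks, the shares were 0.755% (0.629 to 0.906%) and 0.479% (0.357 to 0.642%). Here the order of the 2 classes was the reverse, at shares near 0. H3K9me3 also ran the other way. An EA-HFSC H3K9me3 peak overlapped 22.1% (21.4 to 22.8%) of the H3K27me3 peaks of EA-HFSCs alone and 9.68% (9.09 to 10.3%) of those of non-EA-HFSCs alone. Near gene starts the H3K9me3 lists differ widely in extent, with 45.2% of all genes marked in EA-HFSCs and 2.8% in non-EA-HFSCs.

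**Figure D2:**
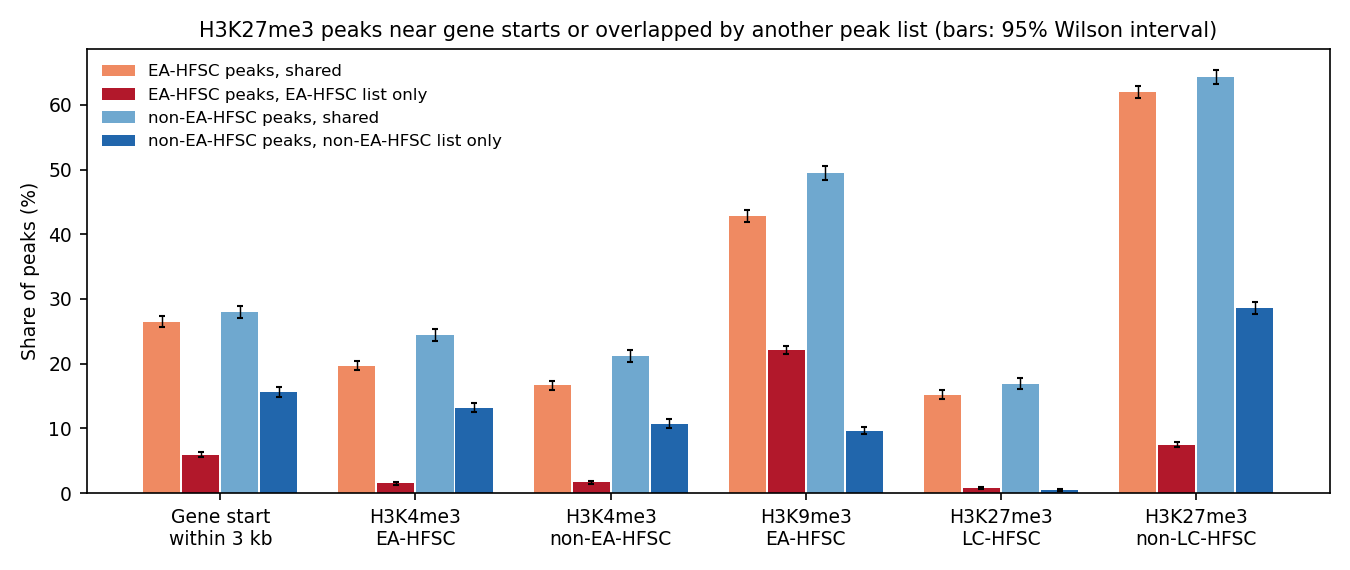
Share of H3K27me3 peaks (%) that lie within 3000 bp of a transcript start, or are overlapped by a peak of another list, for shared and single-list peaks of each population; bars on the columns are 95% Wilson intervals. Peaks of EA-HFSCs alone are at 1.51% for EA-HFSC H3K4me3 and 7.48% for non-LC-HFSC H3K27me3, and those of non-EA-HFSCs alone at 13.2% and 28.6%.

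At gene starts the order of the populations was the reverse of that of the peak numbers. Of 22367 protein-coding genes, 2918 were marked in EA-HFSCs and 3480 in non-EA-HFSCs. Both populations marked 2357 genes (10.5% of all), EA-HFSCs alone 561 (2.51%) and non-EA-HFSCs alone 1123 (5.02%), and 18326 (81.9%) were marked in neither. Thus 80.8% (79.3 to 82.2%) of the genes marked in EA-HFSCs were marked in non-EA-HFSCs, and 67.7% (66.2 to 69.3%) the other way. Where both marked a gene, the peaks covered a median of 69.3% of the 3000 bp to either side of the start in EA-HFSCs and 85.8% in non-EA-HFSCs. The window was covered further in non-EA-HFSCs at 1459 genes, further in EA-HFSCs at 542 and wholly in both at 356.

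Genes of 1 population alone were covered less than genes of both. The best peak had a median score of 69.2 at genes of EA-HFSCs alone and 99.3 at genes of non-EA-HFSCs alone, and the median window cover was 22.1% and 41.6%. Some calls sat at the edge of the window. The nearest EA-HFSC peak lay in the last kilobase of the window at 121 of the 561 genes of EA-HFSCs alone. At 33 of the 561 a non-EA-HFSC peak lay in the kilobase beyond the window. Of the 1123 genes of non-EA-HFSCs alone, 131 had their peak in the last kilobase and 57 had an EA-HFSC peak just beyond. The best peak itself overlapped a peak of the other list outside the window at 16 of the 561 genes (2.85%, 1.76 to 4.58%) and 72 of the 1123 (6.41%, 5.12 to 8.00%), so that a gene of 1 population alone may lie in a domain of both, as Foxd1 and Fezf1 do. Genes scoring 100 or more in the one population that had no peak of the other within 10 kb, by a rule added after the data had been seen, numbered 152 for EA-HFSCs and 440 for non-EA-HFSCs.

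H3K4me3 at the same genes was less frequent where EA-HFSCs alone had H3K27me3. Over all genes, 60.4% had an H3K4me3 peak near the start in EA-HFSCs and 59.6% in non-EA-HFSCs. Genes with H3K27me3 in non-EA-HFSCs alone had H3K4me3 in 69.3% of cases in EA-HFSCs (66.5 to 71.9%) and in 65.7% in non-EA-HFSCs (62.9 to 68.4%), so that most of them carried both marks in the population where H3K27me3 was called. Genes with H3K27me3 in EA-HFSCs alone had H3K4me3 in 40.3% (36.3 to 44.4%) and 39.9% (36.0 to 44.0%). For genes of both these shares were 65.3% (63.4 to 67.2%) and 58.6% (56.6 to 60.6%), and for genes of neither 59.8% and 60.0%. Whether both marks sat in the same cells cannot be told from these lists, and non-EA-HFSCs are a mixture of cell types. At late catagen, where 11.9% of all genes were marked in non-LC-HFSCs and 3.39% in LC-HFSCs, a non-LC-HFSC H3K27me3 peak was present at 84.7% of the genes of both, 42.0% (39.2 to 44.9%) of those of non-EA-HFSCs alone and 16.0% (13.2 to 19.3%) of those of EA-HFSCs alone. LC-HFSCs had a peak at 30.9%, 1.16% and 2.85% of them. The non-LC-HFSC shares depended on the score. With scores of at least 100 they were 69.2% for genes of non-EA-HFSCs alone and 39.8% for those of EA-HFSCs alone. H3K9me3 of EA-HFSCs was present at 74.8% of the genes of both, 31.0% of those of non-EA-HFSCs alone and 48.1% of those of EA-HFSCs alone. Its share over all genes was 45.2%.

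Where genes of the bulge programme were marked, it was mainly in non-EA-HFSCs. Of 15 transcription factors of bulge stem cells, 7 were marked in non-EA-HFSCs alone (46.7%, 24.8 to 69.9%, against 5.02% of all genes), 1 in both (Gata3), 7 in neither and none in EA-HFSCs alone. The 7 were Sox9, Lhx2, Tbx1, Foxc1, Nfib, Gli1 and Runx1. Like the other gene lists, this one was chosen with earlier results of these data known, which limits the comparison with all genes. Nfib and Runx1 had no H3K4me3 near the annotated start in any population, and the Runx1 peak (score 47.5) lay 2340 bp from it and covered 661 bp of the window. Of 15 surface and other markers of bulge and follicle stem cells, 6 were marked in non-EA-HFSCs alone (Cd34, Krt19, Lgr5, Cd200, Fgf18 and Fst) and 9 in neither. Cd34 encodes the antigen that separates the gates, so its place among the 6 is not independent of the sort. EA-HFSCs had an H3K27me3 peak at 1 of these 30 genes. Several of the peaks were low-scoring, and the 7 factors became 3 with peaks of scores of 100 or more and 2 under the stricter rule above, while the 6 markers became 4 under each.

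The factors differed in how they were marked. Lhx2, a LIM homeobox factor that keeps bulge cells undifferentiated, had a non-EA-HFSC peak of 9249 bp with a score of 845 that ended 9 bp inside the gene, and a second with a score of 97.3 that began 77 bp inside it and ran to 40841 bp. The nearest EA-HFSC peak was 73411 bp away. Tbx1, a T-box factor of bulge self-renewal, lay at its start under a peak with a score of 752, followed inside the gene by one of 7938 bp (score 911), with the nearest EA-HFSC peak 186413 bp away. Non-LC-HFSCs had H3K27me3 at both (scores 1265 and 323) and LC-HFSCs at neither. Both genes had H3K4me3 near the start in both populations, with scores of 3100 in EA-HFSCs and 306 and 406 in non-EA-HFSCs. Sox9, which specifies the bulge, lay under a wide peak with a low score in non-EA-HFSCs (11062 bp, score 69.7) and had H3K4me3 with a score of 3100 in both populations. Foxc1, which holds bulge cells in quiescence, was alike, with a peak of 16968 bp and a score of 83.8. Nfatc1 and Tcf7l1, other factors of the quiescent bulge, had no H3K27me3 peak near the start in either population and had H3K4me3 in both.

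Cd34 and Krt19 carried a different mark in each population. The start of Cd34 lay under an H3K27me3 peak of non-EA-HFSCs at chr1:196763506-196767396 (3891 bp, score 271) with no H3K4me3 peak, while EA-HFSCs had an H3K4me3 peak with a score of 3100 and no H3K27me3 peak closer than 11331 bp. Non-LC-HFSCs had H3K27me3 there too (score 120), and LC-HFSCs had H3K4me3 (score 1735). The sequence before this start, shown above, lies wholly inside the non-EA-HFSC peak. Krt19, a keratin of the bulge, had a non-EA-HFSC H3K27me3 peak of 6338 bp (score 285) with no H3K4me3, and in EA-HFSCs an H3K4me3 peak (score 196) at another of its transcript starts with no H3K27me3. Lgr5, the R-spondin receptor of cycling follicle stem cells, had a non-EA-HFSC peak of 7730 bp (score 683) and H3K4me3 scores of 3100 in EA-HFSCs and 399 in non-EA-HFSCs. Krt15, a bulge keratin, and the basal keratins Krt5 and Krt14 had H3K27me3 in neither population.

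**Figure D3:**
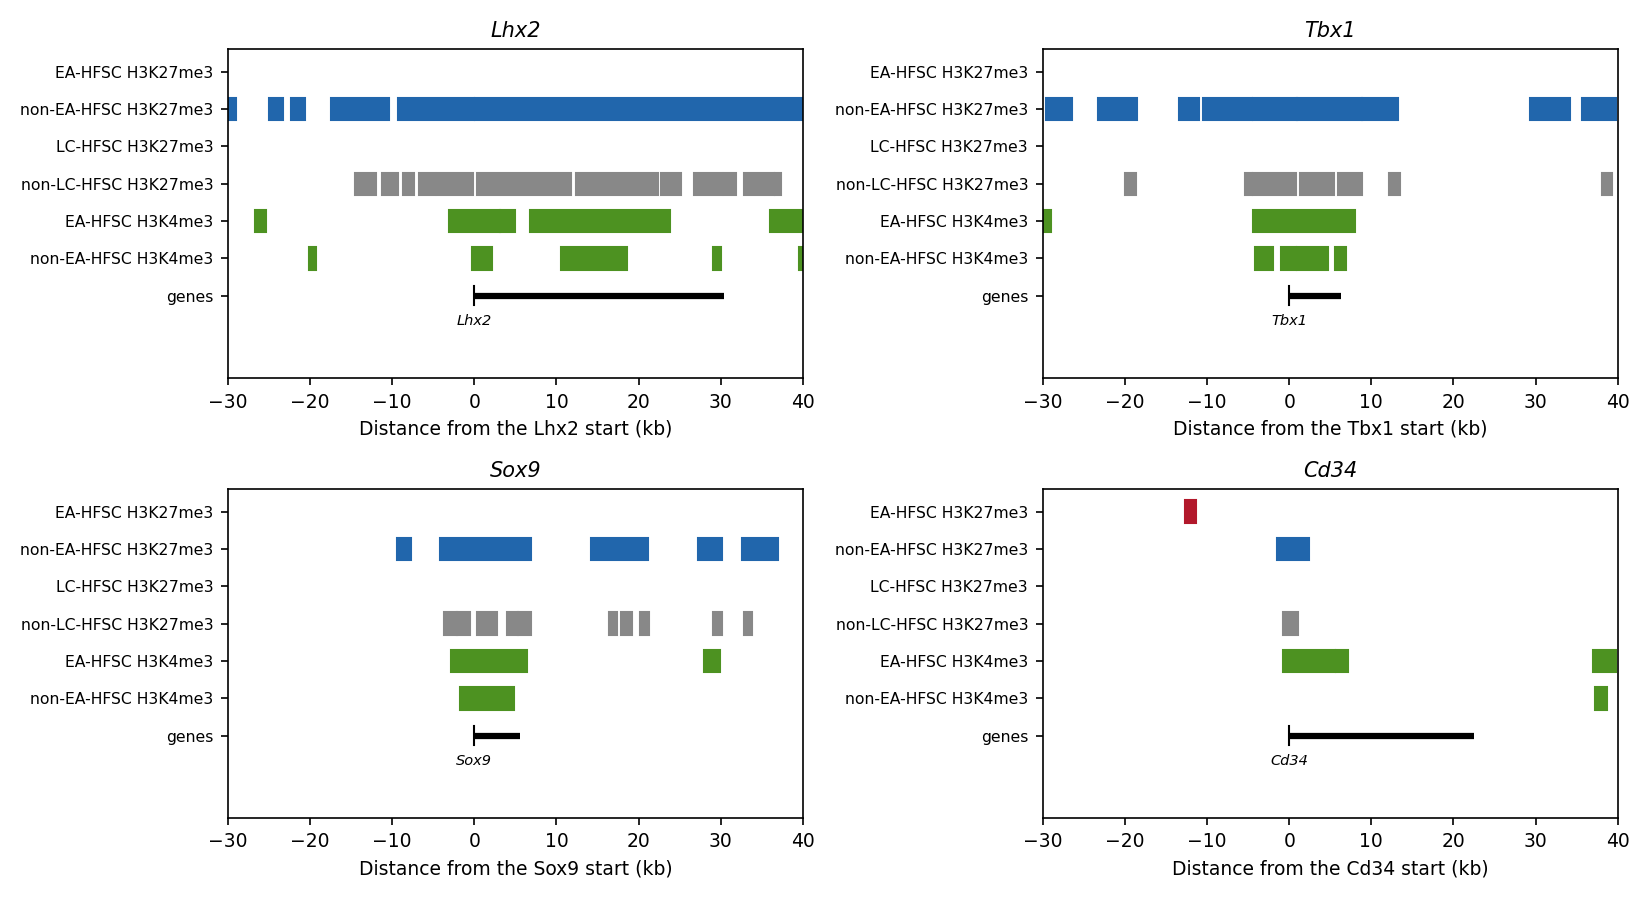
Called peaks around the starts of Lhx2, Tbx1, Sox9 and Cd34 in the direction of the gene (x axis, kb from the start); each row is 1 peak list and the black bar is the gene. Around Lhx2, Tbx1 and Sox9 the non-EA-HFSC and non-LC-HFSC rows hold H3K27me3 peaks and the EA-HFSC and LC-HFSC rows hold none, and at Cd34 the EA-HFSC row holds 1 peak upstream of the gene.

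A wider view came from gene sets that the study took from mRNA levels on earlier microarrays. Of the genes more expressed in the bulge (221 genes from 218 of 220 symbols), 86 were marked in non-EA-HFSCs alone (38.9%, 32.7 to 45.5%, against 5.02% of all genes), 16 in both (7.24%, against 10.5%), 2 in EA-HFSCs alone (0.905%, against 2.51%) and 117 in neither. The 86 include Sox9, Lhx2, Tbx1, Nfib, Runx1 and Cd34 from the 2 lists above, so the set is not independent of them. Of the 86, 83 had H3K4me3 in EA-HFSCs and 80 in non-EA-HFSCs, and 56 had H3K27me3 in non-LC-HFSCs and 1 in LC-HFSCs. The highest-scoring were Mfge8, a secreted glycoprotein that tags dying cells for uptake (score 1735, 12999 bp), the calcium-dependent kinase Camk4 (1112), the potassium channel Kcnc4 (1043) and Tbx1. Mfge8 was the one with an LC-HFSC peak as well (score 59.1). Under the stricter rule the 86 genes became 55.

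The set of 99 genes less expressed in the bulge gave the mirror picture on a smaller scale. EA-HFSCs alone marked 12 (12.1%, 7.07 to 20.0%, against 2.51% of all genes), both populations 12, and non-EA-HFSCs alone none (0 of 99, interval up to 3.74%). The 12 were Cpxm2, Gna14, Pkib, Mycl1, Parm1, Rab27a, Tgfbr3, Sox21, Fzd10, St3gal6, Abcc4 and Il20ra. All 12 had H3K4me3 in both populations, and none had H3K27me3 in LC-HFSCs or non-LC-HFSCs. Under the stricter rule 7 were left. Scores ran up to 558 at Fzd10, a Wnt receptor, and 287 at Pkib, an inhibitor of protein kinase A. Of 422 constantly expressed genes, 2 were marked in both (0.474%, against 10.5% of all genes), 7 in EA-HFSCs alone and 7 in non-EA-HFSCs alone (1.66% each). Of 225 non-lineage genes, 80 were marked in both (35.6%), 11 in EA-HFSCs alone (4.89%, against 2.51%) and 18 in non-EA-HFSCs alone (8.00%, against 5.02%).

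**Figure D4:**
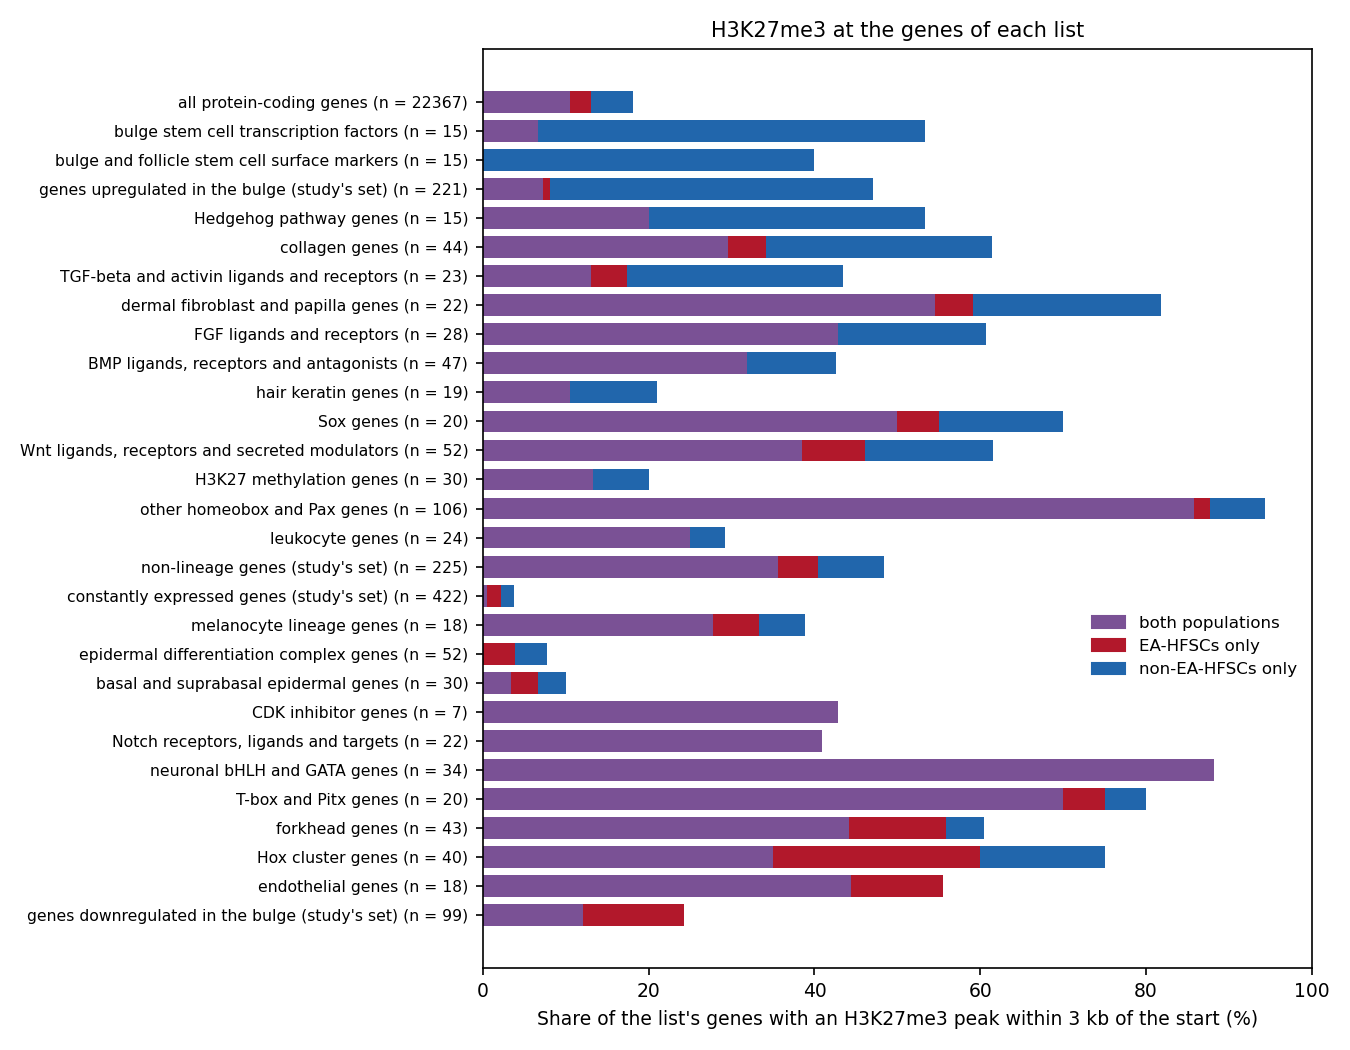
Share of the genes of each list (%) with an H3K27me3 peak within 3000 bp of the start in both populations, in EA-HFSCs alone or in non-EA-HFSCs alone, with all 22367 protein-coding genes as the top bar and the number of genes beside each name. Bulge transcription factors reach 46.7% in non-EA-HFSCs alone and genes less expressed in the bulge 12.1% in EA-HFSCs alone, against 5.02% and 2.51% of all genes.

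In several signalling pathways more genes were marked in non-EA-HFSCs alone than in EA-HFSCs alone, as over all genes (5.02% and 2.51%). The share of all genes marked in both populations was 10.5%. Of 15 Hedgehog pathway genes, 5 (33.3%) were marked in non-EA-HFSCs alone, among them the ligand Dhh (score 951), the receptor Ptch1 (272) and the factors Gli1 (96.0) and Gli2 (114). The ligands Shh and Ihh and the inhibitor Hhip were marked in both, and no Hedgehog gene in EA-HFSCs alone. Under the stricter rule the 5 became 3. Of 47 BMP genes, 15 were marked in both and 5 (10.6%) in non-EA-HFSCs alone, among them the antagonist Grem1 (score 344, H3K4me3 scores of 3100 in EA-HFSCs and 152 in non-EA-HFSCs), the inhibitory SMAD Smad6 (315) and the activin-binding Fst (71.9). Of 23 TGF-β and activin genes, 6 (26.1%) were marked in non-EA-HFSCs alone, with Ltbp2, which binds the extracellular matrix, at a score of 1100. EA-HFSCs alone marked 1 of them, the co-receptor Tgfbr3. Of 28 genes of FGF ligands and receptors, 12 were marked in both and 5 (17.9%) in non-EA-HFSCs alone, among them the bulge ligand Fgf18 (score 74.1).

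Wnt genes went both ways. Of 52, 20 were marked in both (38.5%, against 10.5% of all genes), 4 in EA-HFSCs alone (7.69%, against 2.51%) and 8 in non-EA-HFSCs alone (15.4%, against 5.02%). EA-HFSCs alone marked the ligands Wnt3a (score 510, 4538 bp), Wnt16 (538, 7349 bp) and Wnt10b (85.9, 1644 bp) and the receptor Fzd10 (558, 2998 bp). These 4 starts had H3K4me3 in both populations. Its score was 384, 195, 191 and 1311 in EA-HFSCs and 3100, 3100, 1284 and 3100 in non-EA-HFSCs. Non-EA-HFSCs alone marked the ligands Wnt1 (824), Wnt7b and Wnt9a, the receptors Fzd4 (133) and Fzd9 (115), Lgr5 (683), and the secreted Wnt modulators Dkk3 and Sfrp1. Under the stricter rule the 8 became 5 and the 4 became 3. The inhibitors Dkk1, Dkk2, Wif1 and Frzb were marked in both.

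Some groups had no member marked in 1 population alone, which for small groups is near the shares over all genes (2.51% and 5.02%). The 22 Notch genes had 9 marked in both (40.9%, against 10.5% of all genes) and none in 1 population alone. The same held for 3 of 7 CDK inhibitor genes (Cdkn1c, Cdkn2a and Cdkn2b) and for 30 of 34 neuronal bHLH and GATA genes. Of 30 genes of basal and suprabasal epidermis 27 (interval 74.4 to 96.5%) were marked in neither, as were 48 of 52 genes of the epidermal differentiation complex (92.3%, 81.8 to 97.0%), against 81.9% of all genes. The exceptions in EA-HFSCs alone were low-scoring, with 76.0 at Grhl3, a barrier transcription factor, and 44.5 at Lor, which encodes loricrin. Collagen genes did differ. Of 44, 13 were marked in both, 2 in EA-HFSCs alone (4.55%, against 2.51% of all genes) and 12 in non-EA-HFSCs alone (27.3%, against 5.02%), the latter including Col5a1 (263), Col8a2 (232) and Col1a1 (184). The 12 became 6 with scores of 100 or more and 3 under the stricter rule.

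Markers of other skin cells are given as a check on the sorts, both of which required α6-integrin. Over all genes, 10.5% were marked in both populations, 2.51% in EA-HFSCs alone and 5.02% in non-EA-HFSCs alone. Of 22 dermal fibroblast and papilla genes, 12 were marked in both, 1 in EA-HFSCs alone and 5 in non-EA-HFSCs alone (Dcn, Prdm1, Trps1, Sox2 and Mfap5). Prdm1 had a score of 815, Sox2 lay in a domain of 39780 bp (1319) that overlapped an EA-HFSC peak elsewhere, the Trps1 peak (40.9) reached 0.367% of the window and an EA-HFSC peak lay 3197 bp from the start of Mfap5. Of 18 endothelial genes, 8 were marked in both and Cdh5 and Robo4 in EA-HFSCs alone, with scores of 45.3 and 111. Of 24 leukocyte genes 6 were marked in both, and of 18 melanocyte genes 5, with 1 and 2 more in 1 population alone. Genes for writing, reading and removing H3K27me3 were marked about as often as all genes. Of 30, 24 (80.0%, against 81.9% of all genes) were marked in neither, 4 were marked in both, among them Bmi1 and Phc1, which encode subunits of Polycomb repressive complex 1, and Cbx6 and Cbx8, which encode readers, in non-EA-HFSCs alone.

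Homeobox genes were among the most marked groups, and in the Hox clusters the lists differed over domains that each hold several genes. Of 106 homeobox and Pax genes outside the Hox clusters, 91 were marked in both populations (85.8%, 78.0 to 91.2%, against 10.5% of all genes), 2 in EA-HFSCs alone (1.89%, Evx2 and Lmx1b, against 2.51%) and 7 in non-EA-HFSCs alone (6.60%, against 5.02%). The 7 were Dlx3, Dlx4, Irx1, Irx3, Lhx2, Meox1 and Msx2, with the highest scores at the Iroquois genes Irx1 (1351) and Irx3 (1155). Of 40 Hox genes, 14 were marked in both (35.0%), 10 in EA-HFSCs alone (25.0%) and 6 in non-EA-HFSCs alone (15.0%). The 10 were the posterior Hoxc9 to Hoxc13 and Hoxd9 to Hoxd13, which lay in 3 distinct peaks, and the 6, also in 3 peaks, were 2 gene entries of Hoxa3, and Hoxa6, Hoxb5, Hoxb6 and Hoxc6. The domain over Hoxa3 and Hoxa6 (49069 bp) overlapped an EA-HFSC peak elsewhere.

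The Hoxc cluster was divided between the lists. An EA-HFSC domain at chr15:102762331-102818324 (score 1077) covered the starts of Hoxc9 to Hoxc12, and a further EA-HFSC peak of 16190 bp (score 570) ended 1448 bp before the start of Hoxc13. The nearest non-EA-HFSC peak to Hoxc13 was 67535 bp away, towards Hoxc8 and Hoxc6. In the Hoxd cluster, the EA-HFSC domain over Evx2 and Hoxd8 to Hoxd13 (score 384) had no overlapping non-EA-HFSC peak, whereas the adjoining domain over Hoxd1 to Hoxd4 was present in both lists, of 65837 and 65724 bp. The latter began 736 bp past the start of Hoxd8, which was therefore called in both. The late catagen lists divided these clusters in other ways. Non-LC-HFSCs had H3K27me3 at Hoxc13 (score 1156) and at none of Hoxc9 to Hoxc12, and LC-HFSCs had it at Hoxc12 (125). At Hoxd9 and Hoxd13, where non-EA-HFSCs had no peak, non-LC-HFSCs had scores of 1692 and 1215.

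**Figure D5:**
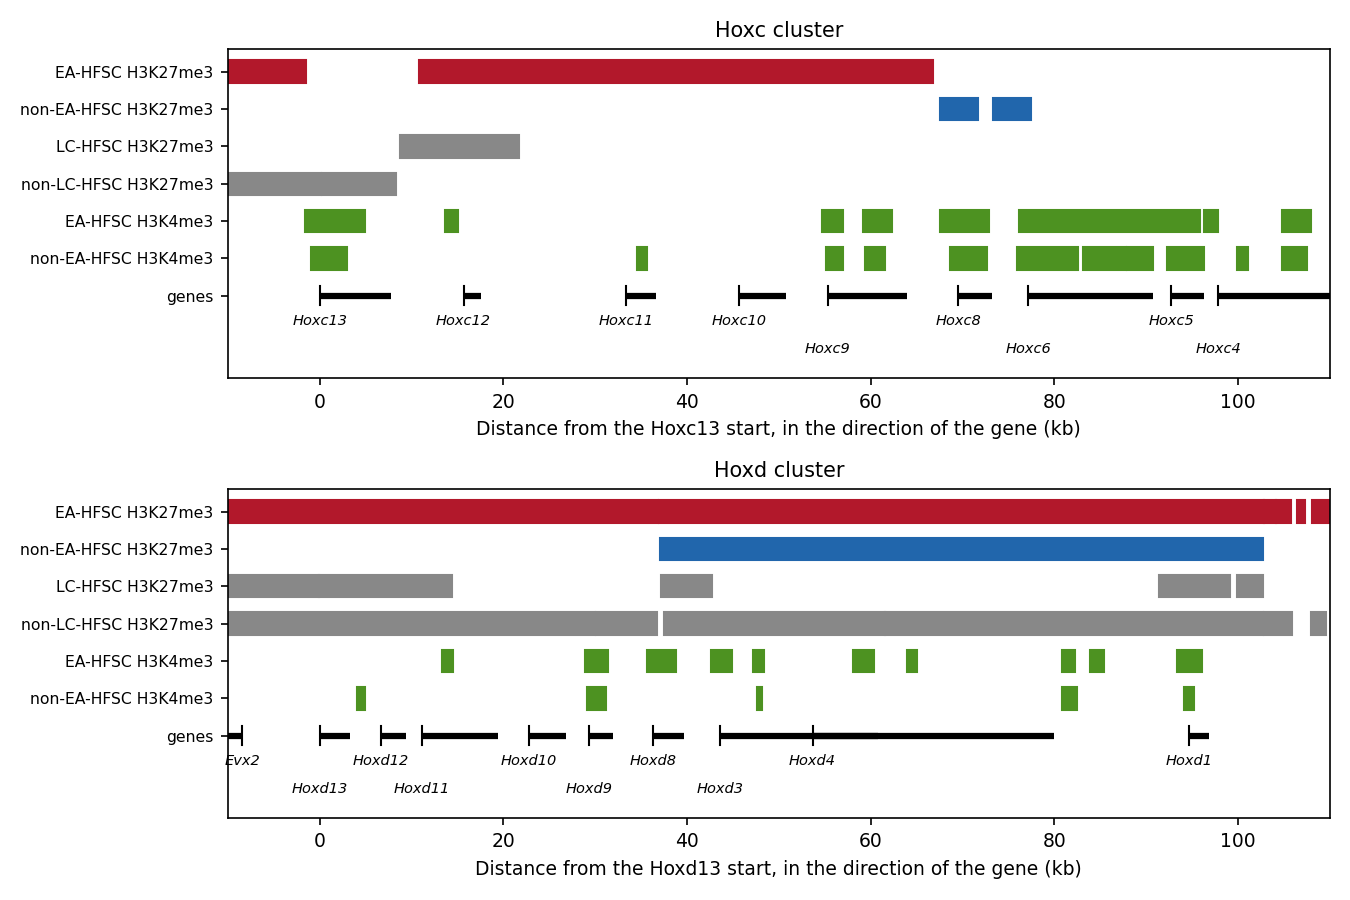
Called peaks over the Hoxc and Hoxd clusters by distance (kb) from the start of Hoxc13 and of Hoxd13, 1 row per list, with genes as black bars. EA-HFSC H3K27me3 covers Hoxc9 to Hoxc12 and Hoxd9 to Hoxd13, where the non-EA-HFSC row holds no peak, and non-LC-HFSC H3K27me3 covers Hoxd9 to Hoxd13 and the start of Hoxc13.

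Broad domains of 1 list alone were set beside the late catagen lists and EA-HFSC H3K9me3. The overlaps were not adjusted for width, and those of shared broad domains were not counted. The counts can therefore not be read as particular to these domains. Among peaks under 10 kb of EA-HFSCs alone, 7.39% overlapped a non-LC-HFSC peak and 21.96% an EA-HFSC H3K9me3 peak. Among such peaks of non-EA-HFSCs alone, these shares were 28.1% and 9.49%. Of 30 peaks of 10 kb or more in EA-HFSCs alone, 16 (53.3%, 36.1 to 69.8%) overlapped a non-LC-HFSC peak, 12 an LC-HFSC peak and 28 an EA-HFSC H3K9me3 peak. Examples are the domains over Foxd2 and Foxe3 (47504 bp, score 1104), where non-LC-HFSCs had scores of 3100 and 1058 with no non-EA-HFSC peak at either start, and Dmbx1 (32099 bp, 1731). Of 67 peaks of 10 kb or more in non-EA-HFSCs alone, 66 (98.5%, 92.0 to 99.7%) overlapped a non-LC-HFSC peak. An EA-HFSC H3K9me3 peak overlapped 23 of them (34.3%, 24.1 to 46.3%) and an LC-HFSC peak 6, as at Wnt1 (23245 bp, LC-HFSC score 131). Without genes whose best peak was 10 kb or wider, a rule added after the data had been seen, 539 genes of EA-HFSCs alone and 1078 of non-EA-HFSCs alone were left, and the Hox genes among them numbered 0 of EA-HFSCs alone, from 10, and 1 of non-EA-HFSCs alone, from 6, which turns their order. The cause of these gaps was not tested.

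Some of the highest-scoring genes of 1 population lay outside the lists above. In EA-HFSCs alone they included Fam124b (score 1140), the phosphodiesterase gene Pde10a (968), Ttll11 (903), and Rasal3 (886), whose peak reached 4.35% of the window. Non-EA-HFSC peaks lay not far outside the window, 3156 bp from the start of Rasal3 and 4006 bp from that of Ttll11. The first of all, Rps2-ps5 (2930), had its peak 1945 bp from the start, and that peak overlapped 2 non-EA-HFSC peaks outside the window. In non-EA-HFSCs alone the first was Npm3, a nucleoplasmin gene (2958), with a peak that entered 4.68% of the window, while the nearest EA-HFSC peak lay 3011 bp from the start, just outside. Mfge8, Irx1 and Egflam, which encodes a matrix protein (1324), had peaks across the start. The first and second highest-scoring peaks of EA-HFSCs alone held no gene start and lay at chr3:9130119-9137193 (score 1969), 116946 bp from Zbtb10, and at chr6:93452286-93462558 (1743), 563936 bp from Adamts9.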

How the data were processed

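ChIP-seq peak lists of 2 populations at early anagen were compared, with the H3K4me3, H3K9me3 and late catagen H3K27me3 lists as other readouts. Per the study's methods and the submitters' processing notes, reads were trimmed with Trimmomatic 0.22 and aligned to mm9 with Bowtie2, replicates were pooled, and peaks were called with MACS against IgG of the same population. The deposited score is the MACS p-value as a negative log10, multiplied by 10, and a score of 3100 is a value shared by many of the strongest peaks. The lists hold no read counts. The study's methods give uniquely mapped reads as ranges over samples, lower for IgG than for the marks and lower for EA-HFSCs than for LC-HFSCs, and not per library, so the precision behind a single peak is not known.

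From the lists, overlaps of at least 1 bp, widths and distances were computed in Python 3.11.15 with numpy 2.4.6 and scipy 1.17.1, and genes were taken from the GENCODE annotation of NCBIM37 with 1 start per gene. Overlap counts were tested on simulated peaks, recovered in 3 of 3 settings, and compared with bedtools 2.31.1. Shares have 95% Wilson intervals and medians order-statistic intervals, both for counting error only. With 1 pooled list per population no test was made. The rule for named genes took the 12 highest-scoring genes of each population alone, up to 4 of each list and class, and Cd34, Itga6, Krt15, Krt5, Krt14, Sox9, Lhx2, Tbx1, Nfatc1, Lgr5 and Tcf7l1. It also took the 5 widest and 5 highest-scoring single-list peaks of each population. Genes and peaks outside that rule were named after their values were seen. The members and gene lists were chosen with earlier results of these data known, and the bulge, constant and non-lineage sets come from the study's supplementary sheets. Alternatives were score minimums, equal list sizes, joining of neighbouring peaks, a larger overlap and other windows. Some genes of the lists are counted but not reported by name here.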

Additional observations from a re-analysis of the deposited data

Results flagged for a closer look

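The order of the 2 gates in H3K27me3 turned between the hair cycle stages. The ratio of peak number in HFSCs to that in non-HFSCs was 1.46 at early anagen and 0.125 at late catagen. The ratio of median widths was 0.529 at early anagen and 2.03 at late catagen, where the 1909 LC-HFSC peaks had a median of 2979 bp and the 15273 non-LC-HFSC peaks a median of 1469 bp. These results are given because the 2 stages lie on opposite sides of 1. There is 1 pooled list per side, the lists hold no read counts, and the study's methods give mapped reads only as ranges, which are higher for LC-HFSCs than for EA-HFSCs. The difference between the stages was not tested.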

How the results depend on the processing

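No paired analysis was possible because each population has 1 pooled list and the labels give no replicate numbers. EA-HFSCs had the narrower peaks, the smaller cover and the fewer genes of 1 population alone at every setting run for these values, and the more numerous peaks at every setting but lists of equal size, which fix the number. With scores of at least 50, 100, neighbours within 1 kb joined and within 3 kb joined, the ratio of peak numbers was 1.37, 1.18, 1.37 and 1.27. The cover ratio was 0.728 with lists of equal size and 0.923 with 3 kb joining. The median width of EA-HFSC peaks was 1661, 3003, 1763, 1532 and 1767 bp with scores of at least 50, at least 100, equal size, 1 kb and 3 kb joining. That of non-EA-HFSC peaks was 3072, 4682, 3028 and 3349 bp with scores of at least 50, at least 100, 1 kb and 3 kb joining.

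The order of sharing did not hold throughout. The share of EA-HFSC peaks that were shared was 43.6, 52.0, 49.3, 39.0 and 37.4% with scores of at least 50, at least 100, equal size, 1 kb joining and an overlap of 50%. That of non-EA-HFSC peaks was 51.5, 41.4, 48.3, 50.0 and 35.2% with scores of at least 100, equal size, 1 kb joining, 3 kb joining and 50% overlap, so EA-HFSCs had the higher share at equal size, at scores of at least 100 and at 50% overlap. Peaks of EA-HFSCs alone numbered 4007, 8869 and 8827 with scores of at least 100, equal size and 3 kb joining. Peaks of non-EA-HFSCs alone numbered 3441 and 5860 with scores of at least 100 and 3 kb joining. At equal size they numbered 10243 and outnumbered those of EA-HFSCs alone. Genes of EA-HFSCs alone numbered 349 with scores of at least 100 and 152 under the stricter rule, and those of non-EA-HFSCs alone 440 under it. The share of EA-HFSC genes with a non-LC-HFSC peak was 20.9, 39.8, 19.3 and 29.6% with scores of at least 50, at least 100, equal size and the stricter rule. For non-EA-HFSC genes it was 47.6, 69.2 and 67.0% with scores of at least 50, at least 100 and the stricter rule. Bulge transcription factors of non-EA-HFSCs alone ranged from 2 to 7 of 15 and genes less expressed in the bulge of EA-HFSCs alone from 7 to 12. Depth is stated as ranges and not per list, which limits every absence of a peak.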

Other observations

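Forkhead, Sox and T-box genes are further families of developmental transcription factors. Over all genes, 10.5% were marked in both populations, 2.51% in EA-HFSCs alone and 5.02% in non-EA-HFSCs alone. Of 43 forkhead genes, 19 were marked in both populations, 5 in EA-HFSCs alone (Foxd1, Foxd2, Foxe3, Foxi1 and Foxs1) and 2 in non-EA-HFSCs alone (Foxc1 and Foxo6). Of 20 Sox genes, 10 were marked in both, Sox21 in EA-HFSCs alone, and Sox2, Sox9 and Sox13 in non-EA-HFSCs alone. Of 20 T-box and Pitx genes, 14 were marked in both, Pitx3 in EA-HFSCs alone (score 200) and Tbx1 in non-EA-HFSCs alone. Of 19 hair keratin genes 15 (78.9%) were marked in neither population, near the 81.9% of all genes. Around all gene starts, the share of genes covered by a peak was higher in non-EA-HFSCs at each of 41 positions from 10 kb before to 10 kb after the start. It was 8.37% in EA-HFSCs and 11.1% in non-EA-HFSCs at the start itself.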
